A study of Mus musculus with 12 samples.

Results

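Glucose and amino acid transporters were read across mammary epithelial cells of the mouse, as 65 genes of 53735 gene symbols counted. The members are every symbol made of Slc1a, Slc2a, Slc3a, Slc5a, Slc7a, Slc36a, Slc38a or Slc43a followed by a number. This rule reads no values, but it was chosen with earlier results of these data known. By family they are 7 Slc1, 12 Slc2, 2 Slc3, 11 Slc5, 15 Slc7, 4 Slc36, 11 Slc38 and 3 Slc43 genes. Live cells were sorted from digested mammary gland by the surface proteins CD24 and CD49f into a luminal and a basal population, and total RNA of each was sequenced in bulk. The 12 libraries form 4 groups of 3: MMTVRANK luminal, WT luminal, MMTVRANK basal and WT basal. In MMTVRANK mice the mouse mammary tumour virus promoter, which is active mainly in mammary epithelium, drives the receptor Rank, whose gene is Tnfrsf11a. The WT mice carry no such transgene. The sorted cells are all of the mammary epithelium per the labels. Age, strain, reproductive state and whether animals were pooled are not given in the sources used here. The labels do not say that replicates came from separate animals, so the p-values measure the spread between these libraries, which may be technical.

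Solute carriers of these families move sugars, amino acids and related small molecules across the plasma membrane and organelle membranes. Slc2 genes encode facilitative sugar transporters, and Slc5 genes encode carriers that use the sodium gradient to take up sugars, iodide, vitamins and monocarboxylates. Amino acids enter through sodium-dependent carriers of the Slc1 and Slc38 families, through Slc7 carriers for cationic amino acids, and through exchangers in which an Slc7 light chain is joined to an Slc3 heavy chain. In the mammary gland such transport feeds milk: luminal cells make lactose from glucose and casein from amino acids, and they concentrate iodide. Basal cells are mostly contractile myoepithelium.

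Total counts were 12459500 to 15069600 per library (each rounded to 6 digits), and the members held 0.169% to 0.383% of them. Levels are counts per 1000000 counts of a library (CPM), scaled by TMM, a factor per library that sets aside differences in composition. Tnfrsf11a, the gene of the transgene, stood at 319, 156 and 238 CPM in MMTVRANK luminal libraries 1 to 3, against 6.36, 90.8 and 9.91 CPM in WT luminal libraries. It stood at 415, 129 and 218 CPM in MMTVRANK basal libraries, against 73.7, 158 and 65.3 CPM in WT basal libraries, so the basal groups overlapped through library 2 of each genotype. For both WT libraries numbered 2, the population in the title is the opposite of that in another label field. Both also had the highest Tnfrsf11a of their WT group, at 90.8 CPM in luminal and 158 CPM in basal cells. The reason was not tested, and the population markers below do not check the genotype. By the titles used here, 9 luminal markers summed to 7030.0 to 21539 CPM in the libraries titled luminal and 342 to 576 CPM in those titled basal, and 7 basal markers to 31.4 to 313 CPM in luminal and 19583 to 25843 CPM in basal libraries. MMTVRANK luminal library 3 stood apart: 16 leukocyte markers summed to 508 CPM there and to 126 to 139.6 CPM in the other luminal libraries, and its basal marker sum was the 313 CPM above. WT basal library 1 had 2867 CPM over 8 fibroblast markers, against 286 to 738 CPM in the other basal libraries. Values without these libraries are given where they differ.

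The promoters of Slc5a5 and Slc3a2 are shown because these genes were among the highest members in luminal and in basal cells. Each window runs from 250 bases before to 50 bases after the gene's start (RefSeq, build GRCm38.p6, minus strand, printed 5′ to 3′ along the gene). The Slc5a5 window is chr8:70892708-70893007 and the Slc3a2 window is chr19:8713848-8714147, so that the RefSeq start lies inside the span of Slc3a2 in the counted annotation. Windows were matched by symbol for 49 members (62 windows). The motifs were searched on both strands and capitals mark each match; no match overlapped another in these windows. The amino acid response element was read as TGATGNAAN. The GC box was read as GGGCGG. The TATA box was read as TATAAA. The CCAAT box was read by its own letters.
Slc5a5: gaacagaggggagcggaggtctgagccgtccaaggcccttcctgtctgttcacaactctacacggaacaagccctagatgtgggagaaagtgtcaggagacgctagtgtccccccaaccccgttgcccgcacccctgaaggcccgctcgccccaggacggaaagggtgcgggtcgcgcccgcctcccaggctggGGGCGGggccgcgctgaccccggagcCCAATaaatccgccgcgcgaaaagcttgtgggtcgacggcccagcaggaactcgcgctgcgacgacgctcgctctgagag
Slc3a2: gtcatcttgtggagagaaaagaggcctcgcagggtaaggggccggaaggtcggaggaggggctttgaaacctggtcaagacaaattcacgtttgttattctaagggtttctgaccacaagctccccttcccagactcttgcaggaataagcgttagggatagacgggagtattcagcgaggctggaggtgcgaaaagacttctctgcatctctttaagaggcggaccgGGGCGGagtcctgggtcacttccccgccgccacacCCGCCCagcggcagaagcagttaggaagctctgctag
Slc5a5 held a GC box 56 bases and a CCAAT box 30 bases before its start. Slc3a2 held a GC box 22 bases before and another, on the other strand, 14 bases after its start. A GC box was found in 35.7% of all 32851 windows and a CCAAT box in 37.4%. Among the windows of members, 37 of 62 held a GC box and 23 a CCAAT box. The amino acid response element was in 3.95% of all windows and in 4 of the 62, and the TATA box in 13.6% of all and in 8.

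Luminal and basal cells differed in most transporters that could be tested, in both genotypes. In MMTVRANK mice 28 of 46 tested members passed (60.9%), 9 with more and 19 with less RNA in the luminal population (edgeR's quasi-likelihood test, adjusted p under 0.05). Of all 18236 genes tested 33.2% passed, 16.1% higher and 17% lower in luminal cells. In WT mice 34 members passed (73.9%), 13 higher and 21 lower, against 38.1% of all genes, 18% higher and 20% lower. The median log2 difference, luminal minus basal, was −0.85 over the tested members in MMTVRANK and −0.77 in WT, against 0.05 in MMTVRANK and −0.07 in WT over all genes. Fewer cells of a type and less RNA per cell cannot be told apart in bulk RNA. Markers of other cells moved with the population: 3 of 8 fibroblast markers were lower in luminal cells of MMTVRANK and all 8 in WT, and 7 of 8 endothelial markers in each genotype, with 1 higher. Fibroblast sums were 79.0 to 238 CPM in MMTVRANK luminal and 38.4 to 137 CPM in WT luminal libraries, against 581 to 738 CPM in MMTVRANK basal and 286 to 2867 CPM in WT basal libraries. Endothelial sums overlapped, at 137 to 253 CPM in MMTVRANK luminal and 109 to 253 CPM in WT luminal, against 85.3 to 239 CPM in MMTVRANK basal and 149 to 279 CPM in WT basal libraries. Sums of 6 pericyte markers were larger in luminal libraries, at 175 to 221 CPM in MMTVRANK luminal and 212 to 247 CPM in WT luminal, against 50.3 to 114 CPM in MMTVRANK basal and 68.4 to 133 CPM in WT basal libraries, though 1 of the 6 was called higher and 2 lower in MMTVRANK, and 1 higher and 5 lower in WT. Leukocyte sums were 126 to 508 CPM in MMTVRANK luminal and 133 to 139.6 CPM in WT luminal, against 25.9 to 183 CPM in MMTVRANK basal and 22.0 to 41.2 CPM in WT basal libraries. The part of these cells in the result was not tested.

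The count test read 46 of the 65 members, since 19 had too few counts. Of the 46, 37 passed the filter on low counts in each population taken alone, 5 through basal libraries only (Slc1a3, Slc2a13, Slc36a2, Slc38a4 and Slc38a5), 3 through luminal libraries only (Slc5a1, Slc5a9 and Slc38a11) and 1, Slc5a10, through both together. The 8 that passed through 1 population were let in by the population where they are high, so their direction is a description. Of the 37, 22 were called in MMTVRANK (7 higher, 15 lower in luminal) and 26 in WT (11 higher, 15 lower). The share over all genes under this rule was not computed. Among the 36 members with an average log2 CPM of 2 or more, 26 were called in MMTVRANK (72.2%), against 42.4% of 11916 such genes, and 29 in WT (80.6%), against 46.6%. The 27 members called in both genotypes had the same direction in each, 9 higher and 18 lower in luminal cells. They are 96.4% of the MMTVRANK calls and 79.4% of the WT calls, and include members that passed the filter through 1 population only. The share of calls common to both genotypes was not computed over all genes. The libraries of the populations did not overlap for 36 members in MMTVRANK, against 54.5% of all genes: 13 were higher (27.7% of all genes) and 23 lower (26.8%) in luminal cells. In WT they did not overlap for 31 members, against 46.1%: 12 were higher (22.3%) and 19 lower (23.8%).

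**Figure D1:**
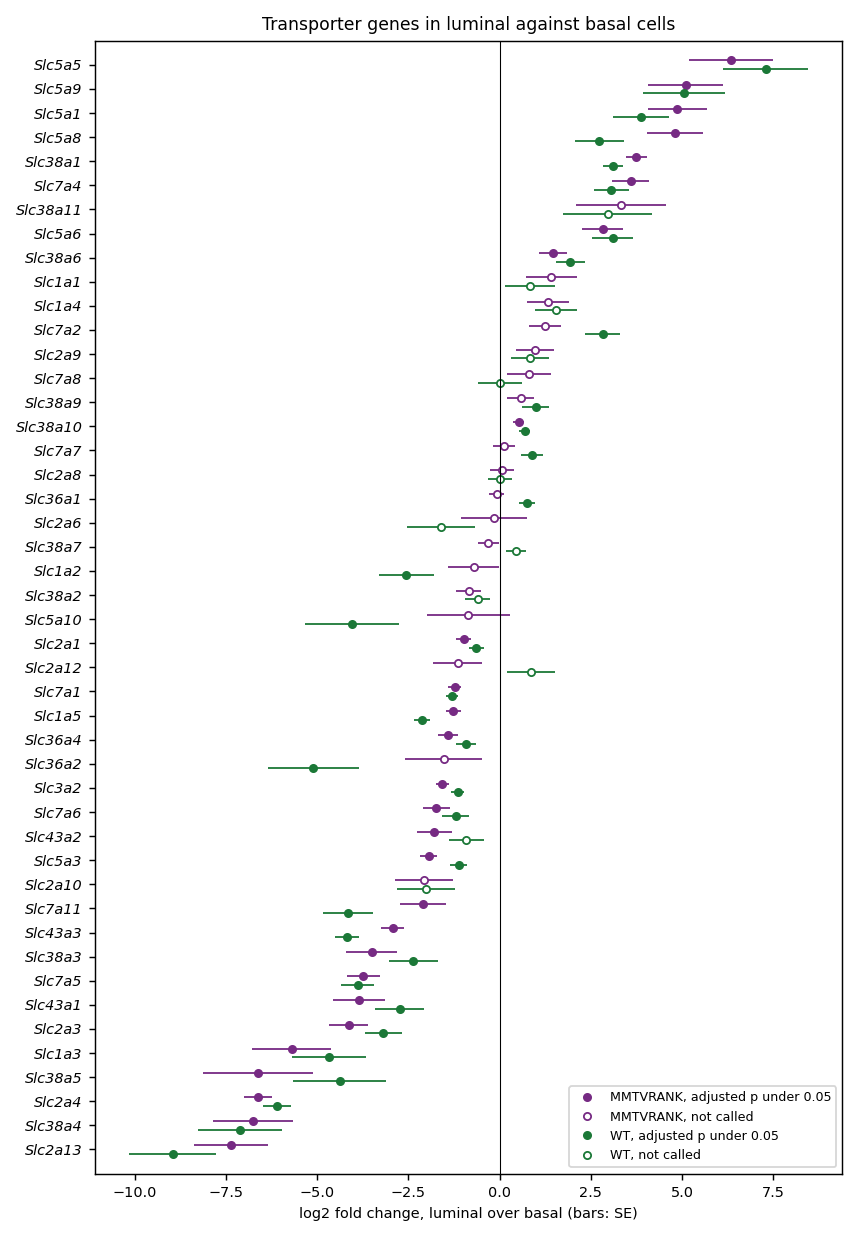
Log2 difference, luminal over basal, of the 46 tested transporter genes in MMTVRANK (purple) and WT (green) mice, with SE bars; filled points passed the test at an adjusted p under 0.05. Slc5a5 is at the top (6.34 in MMTVRANK, 7.29 in WT), Slc2a4 and Slc38a4 are near the bottom, and the fitted value of Slc2a13 in WT rests on luminal libraries with no counts.

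The Slc5 family held Slc5a5, the member with the largest rise in luminal cells in both genotypes. Of 7 tested members, 6 passed in MMTVRANK, 5 higher and 1 lower in luminal cells, and all 7 in WT, 5 higher and 2 lower. Over all genes 16.1% were higher and 17% lower in MMTVRANK, and 18% and 20% in WT. Without Slc5a1, Slc5a9 and Slc5a10, which did not pass the filter on low counts in each population alone, 4 remain, of which 3 were higher and 1 lower in each genotype. Slc5a5, the sodium-iodide symporter that concentrates iodide for milk, lies on chromosome 8 from 70882889 to 70892757. It had 284, 199 and 17.98 CPM in MMTVRANK luminal libraries and 775, 233 and 348 CPM in WT luminal libraries. Basal libraries held 3.40, 2.02 and 0.705 CPM in MMTVRANK and 5.26, 0.432 and 3.00 CPM in WT. Every luminal library was above every basal one, yet the luminal libraries themselves spread widely, with MMTVRANK luminal library 3 lowest. The log2 difference was 6.34 ± 1.14 (SE; adjusted p = 0.00149) in MMTVRANK and 7.29 ± 1.17 (adjusted p = 0.000652) in WT.

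Slc5a6, the sodium-dependent carrier of biotin and pantothenate, averaged 35.1 ± 12.8 CPM in MMTVRANK luminal and 94.6 ± 31.8 CPM in WT luminal libraries (SD, n = 3 each). Its basal levels were 4.94 ± 3.91 CPM in MMTVRANK and 11.0 ± 5.85 CPM in WT. It was higher in luminal cells by 2.82 ± 0.56 on the log2 scale in MMTVRANK and by 3.10 ± 0.56 in WT; 396 exon bases of it are shared with Atraid on the other strand, whose reads the counting does not set apart. The sodium-glucose cotransporter Slc5a1 was low, and every luminal library was above every basal one: 16.3, 8.18 and 20.7 CPM in MMTVRANK luminal and 7.78, 9.29 and 12.3 CPM in WT luminal, against at most 0.843 CPM in MMTVRANK basal and 1.11 CPM in WT basal. It rose by 4.87 ± 0.81 and 3.87 ± 0.77 on the log2 scale in MMTVRANK and WT. Slc5a9, a related sugar cotransporter known from human work as a mannose carrier, rose by 5.10 ± 1.04 in MMTVRANK and 5.05 ± 1.13 in WT, and Slc5a8, a sodium-coupled monocarboxylate carrier, by 4.81 ± 0.76 in MMTVRANK and 2.73 ± 0.67 in WT. Against these, the myo-inositol carrier Slc5a3 fell in luminal cells, with 66.7, 44.2 and 61.8 CPM in MMTVRANK luminal against 270.1, 205 and 191 CPM in MMTVRANK basal libraries. In WT it had 101, 58.2 and 83.7 CPM in luminal against 166, 168 and 196 CPM in basal libraries. No library of 1 population reached the other, and the log2 differences were −1.95 ± 0.23 and −1.13 ± 0.22 in MMTVRANK and WT (159 exon bases shared with Mrps6 on the same strand).

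Cationic amino acid carriers took opposite sides. Slc7a2, an uptake carrier for arginine, lysine and ornithine on chromosome 8 from 40862396 to 40922308, was the member with the most counts in luminal cells. It had 664, 660.5 and 194 CPM in MMTVRANK luminal and 1503, 766 and 1036 CPM in WT luminal libraries. Basal libraries had 167, 194 and 282 CPM in MMTVRANK and 110.1, 137 and 220.0 CPM in WT. In WT it was higher in every luminal library, by 2.82 ± 0.47 on the log2 scale (adjusted p = 0.000774). In MMTVRANK the populations overlapped through luminal library 3 and the difference of 1.24 ± 0.45 missed the threshold (adjusted p = 0.0534). Without that library the difference in Slc7a2 was 1.63 in MMTVRANK, with an adjusted p of 0.00291, and 635 exon bases of Slc7a2 are shared with Gm26584 on the other strand. Slc7a1, the widely expressed arginine and lysine carrier, was lower in luminal cells: 55.2, 60.3 and 61.5 CPM in MMTVRANK luminal against 146, 141 and 129.7 CPM in MMTVRANK basal, and 65.9, 52.1 and 58.3 CPM in WT luminal against 116, 182 and 136 CPM in WT basal libraries. The ranges were apart in both genotypes, at −1.23 ± 0.17 in MMTVRANK and −1.30 ± 0.17 in WT. Slc7a4, a relative whose transport activity is not established, rose in luminal cells by 3.59 ± 0.50 in MMTVRANK and 3.06 ± 0.48 in WT. The 2 other genes of this group, Slc7a3 and Slc7a14, were not tested.

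The heavy chain Slc3a2 and 3 of 5 tested light chains (Slc7a5, Slc7a6 and Slc7a11) were lower in luminal cells of both genotypes. Over all genes 17% were lower in MMTVRANK and 20% in WT. Slc3a2 (CD98 heavy chain, chromosome 19 from 8706882 to 8723369) brings several Slc7 light chains to the cell surface. It had 111, 101 and 127 CPM in MMTVRANK luminal and 165, 134 and 193 CPM in WT luminal libraries, against 384, 276 and 349 CPM in MMTVRANK basal and 361, 349 and 380.0 CPM in WT basal libraries. Its populations were apart in each genotype, by −1.57 ± 0.17 in MMTVRANK (adjusted p = 2.64e-05) and −1.15 ± 0.17 in WT (adjusted p = 0.000247). Slc7a5, the light chain that exchanges large neutral amino acids such as leucine, lies on chromosome 8 from 121881150 to 121907694. It had 23.3, 12.7 and 17.2 CPM in MMTVRANK luminal and 16.1, 14.0 and 15.4 CPM in WT luminal libraries. Basal libraries held 325, 229.8 and 154 CPM in MMTVRANK and 248, 332 and 96.0 CPM in WT. Every basal library was far above every luminal one, with the basal libraries widely spread, and the log2 differences were −3.74 ± 0.44 in MMTVRANK (adjusted p = 7.3e-05) and −3.89 ± 0.45 in WT (adjusted p = 5.54e-05).

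On a scale per kilobase of exon, which allows levels of different genes to be set side by side, Slc7a5 stood at 0.149 ± 0.0433 of the Slc3a2 level in MMTVRANK luminal and 0.0894 ± 0.0120 in WT luminal libraries (SD, n = 3 each). In basal libraries the ratio was 0.672 ± 0.218 in MMTVRANK and 0.600 ± 0.336 in WT, and the lowest basal value, 0.240, was above the highest luminal one, 0.199. Of the other light chains, Slc7a6, which exchanges cationic for neutral amino acids, fell by 1.74 ± 0.37 in MMTVRANK and 1.21 ± 0.36 in WT on the log2 scale. Slc7a11, the cystine-glutamate exchanger, was low in both, at 2.04 ± 0.497 CPM in MMTVRANK luminal, 0.960 ± 0.621 CPM in WT luminal, 8.77 ± 3.58 CPM in MMTVRANK basal and 17.5 ± 13.5 CPM in WT basal libraries. It fell by 2.10 ± 0.63 in MMTVRANK and by 4.16 ± 0.69 in WT, and the MMTVRANK call for Slc7a11 was lost without MMTVRANK luminal library 1 or 3 or MMTVRANK basal library 1. Slc7a7, another cationic and neutral exchanger, was higher in luminal cells of WT by 0.89 ± 0.31 (adjusted p = 0.0367) and with a difference of 0.12 ± 0.30 in MMTVRANK (adjusted p = 0.801). That WT call was lost in 6 of 12 fits that left out 1 library, and 232 exon bases of Slc7a7 are shared with Oxa1l on the other strand. Slc7a8, a broad neutral exchanger, was between 1.01 and 5.80 CPM in all libraries and was not called. Slc7a9, Slc7a10, Slc7a12 and Slc7a13 were not tested, nor was Slc7a15.

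**Figure D2:**
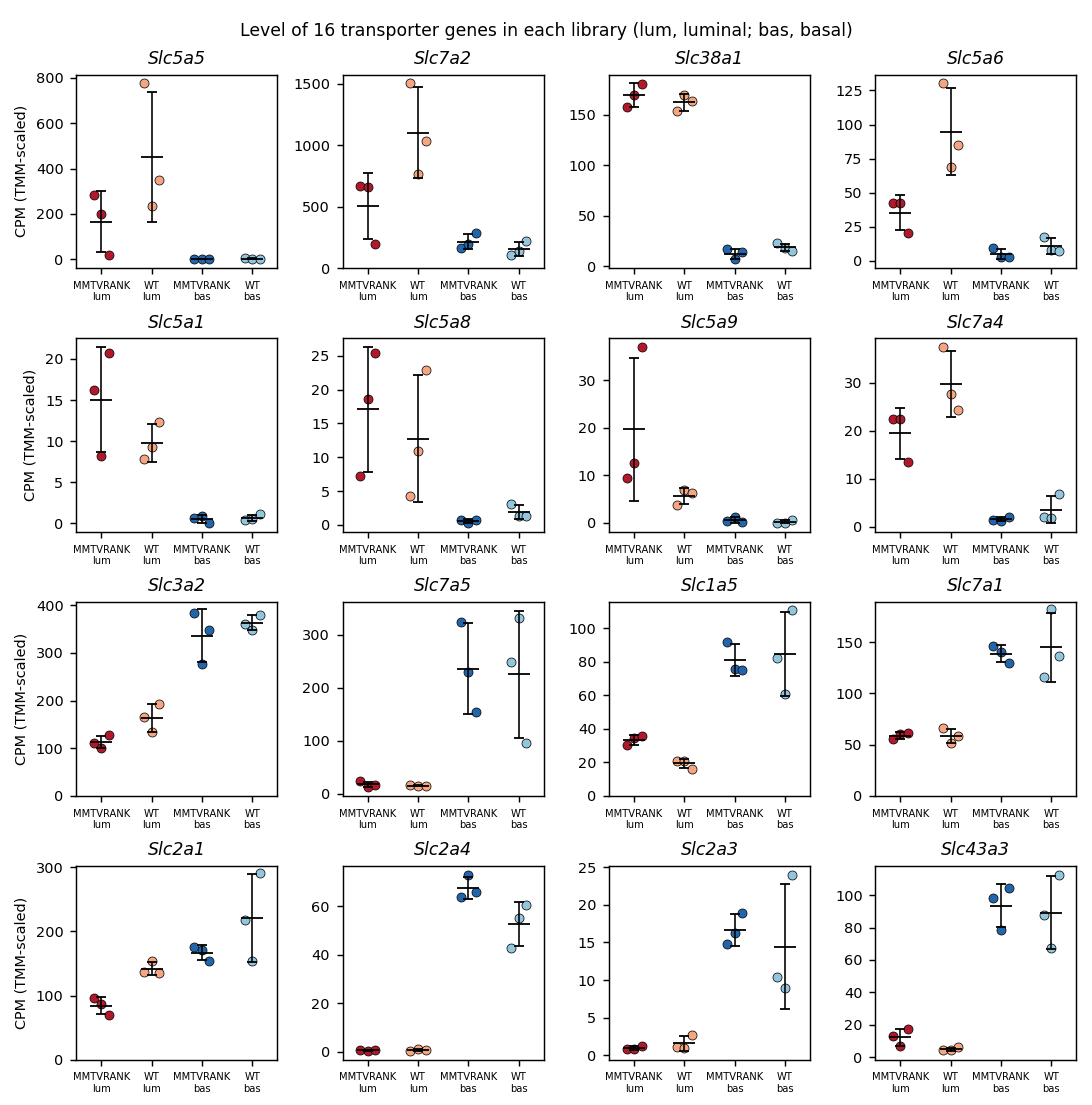
Level (TMM-scaled CPM) of 16 transporter genes in each library, with MMTVRANK luminal, WT luminal, MMTVRANK basal and WT basal from left to right; bars are the mean and SD of 3 libraries. The upper 8 genes have higher means in luminal libraries, led by Slc5a5 and Slc7a2 with a wide spread (17.98 to 775 CPM for Slc5a5). The lower 8 have higher means in basal libraries. Single libraries overlap for Slc7a2 in MMTVRANK and for Slc2a1 in WT.

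Sodium-coupled neutral amino acid carriers of the Slc38 family split between the populations. Among 10 tested members, 3 were higher and 3 lower in luminal cells of MMTVRANK, and 4 higher and 3 lower in WT. Called members were 60% in MMTVRANK and 70% in WT, against 33.2% and 38.1% of all genes. The 7 that passed the filter in each population alone held 3 higher and 1 lower in MMTVRANK and 4 higher and 1 lower in WT, since Slc38a4 and Slc38a5 entered through basal libraries only. Slc38a1, a glutamine carrier on chromosome 15 from 96571418 to 96642913, had 158, 169.7 and 181 CPM in MMTVRANK luminal and 153, 169.5 and 164 CPM in WT luminal libraries. Basal libraries held 16.9, 6.91 and 13.9 CPM in MMTVRANK and 22.8, 18.4 and 15.5 CPM in WT. Luminal libraries were tight and all far above the basal ones, with log2 differences of 3.75 ± 0.28 in MMTVRANK (adjusted p = 1.46e-06) and 3.10 ± 0.27 in WT (adjusted p = 4.87e-06). Its neighbour Slc38a2, which also takes up glutamine and is known to be induced when amino acids are short, lies 44.5 kb away and was abundant in both: 182 to 284 CPM in MMTVRANK luminal, 186 to 298 CPM in WT luminal, 319 to 528 CPM in MMTVRANK basal and 183 to 461 CPM in WT basal libraries. Neither genotype passed for Slc38a2, at −0.85 ± 0.34 in MMTVRANK (adjusted p = 0.0762) and −0.60 ± 0.34 in WT (adjusted p = 0.187). With the replicate number as a block, Slc38a2 passed in MMTVRANK, at −0.84 with an adjusted p of 0.00843. The next gene of this cluster, the imprinted carrier Slc38a4, 295.1 kb further, was at 0 to 0.136 CPM in MMTVRANK luminal and 0 to 0.127 CPM in WT luminal libraries, against 6.35 to 9.24 CPM in MMTVRANK basal and 1.80 to 15.9 CPM in WT basal libraries. Of these 3 adjacent genes, all on the minus strand, Slc38a1 was higher in luminal cells. Slc38a2 was not called in the main fit, with negative values in both genotypes. Slc38a4 was lower, but it entered through basal libraries only, so its direction is a description.

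The lysosomal carrier Slc38a9, which senses arginine for the growth kinase mTORC1, was higher in WT luminal cells by 0.99 ± 0.37 with an adjusted p of 0.0490, and that call was lost in 10 of 12 fits that left out 1 library. Its value was 0.58 ± 0.36 in MMTVRANK (adjusted p = 0.253). Slc38a6 rose in luminal cells by 1.46 ± 0.39 in MMTVRANK and 1.94 ± 0.40 in WT. Slc38a10 rose by 0.52 ± 0.15 in MMTVRANK and 0.68 ± 0.15 in WT, with 367 exon bases shared with a model on the other strand. Slc38a3, a glutamine carrier known from liver and kidney, fell by 3.51 ± 0.69 in MMTVRANK and 2.37 ± 0.67 in WT, where the call was lost without WT basal library 2.

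Facilitative sugar transporters were lower in luminal cells wherever the test passed. Of 9 tested Slc2 members, 4 were lower and none higher in each genotype: Slc2a1, Slc2a3, Slc2a4 and Slc2a13, the last of which entered through basal libraries only. That is 44.4%, against 33.2% of all genes called in MMTVRANK and 38.1% in WT (17% and 20% lower). Of the 8 Slc2 members that passed the filter in each population alone, 3 were lower in each genotype. Slc2a1, the general glucose transporter and the main one of the mammary gland, lies on chromosome 4 from 119108711 to 119137983. It had 95.7, 87.1 and 70.3 CPM in MMTVRANK luminal and 137, 154 and 135 CPM in WT luminal libraries. Basal libraries had 176, 170.4 and 154 CPM in MMTVRANK and 218, 154 and 291 CPM in WT. In MMTVRANK the populations were apart, by −0.99 ± 0.21 (adjusted p = 0.0028), and in WT they met near 154 CPM, at −0.64 ± 0.20 (adjusted p = 0.0276). The WT call for Slc2a1 was lost in 4 of 12 fits that left out 1 library, those without WT luminal library 1 or 3 or WT basal library 1 or 3, where the value lay between −0.83 and −0.38 over all 12.

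Slc2a4, the transporter that insulin brings to the surface of muscle and fat cells, lies on chromosome 11 from 69942539 to 69948188. It had 0.749, 0.448 and 0.820 CPM in MMTVRANK luminal and 0.299, 1.21 and 0.762 CPM in WT luminal libraries, against 63.8, 72.8 and 65.8 CPM in MMTVRANK basal and 42.5, 54.9 and 60.5 CPM in WT basal libraries. All basal libraries were far above all luminal ones, with log2 differences of −6.63 ± 0.38 in MMTVRANK (adjusted p = 2.71e-07) and −6.10 ± 0.38 in WT (adjusted p = 4.91e-07). Fat cells also express Slc2a4, and 6 adipocyte markers moved with it, summing to 1.47 to 9.90 CPM in MMTVRANK luminal and 0.851 to 6.99 CPM in WT luminal, against 47.0 to 149.6 CPM in MMTVRANK basal and 57.9 to 197 CPM in WT basal libraries. Most of the sum in basal libraries was Fabp4, and Adipoq was at most 0.171 CPM in any library. Their part in the result was not tested. Slc2a3, a glucose transporter of high affinity, fell by 4.13 ± 0.54 in MMTVRANK and 3.19 ± 0.51 in WT. Slc2a13, a proton-coupled myo-inositol carrier, had no count in any WT luminal library, against 4.36 CPM pooled over WT basal libraries, and was at least 62.8-fold lower with a floor of 3 counts over the group. Slc2a8, a transporter of intracellular membranes, was level, at 9.86 ± 1.61 CPM in MMTVRANK luminal, 9.51 ± 3.76 CPM in WT luminal, 9.36 ± 0.819 CPM in MMTVRANK basal and 9.42 ± 2.09 CPM in WT basal libraries. Its log2 difference had a 95% interval of −0.64 to 0.79 in MMTVRANK and −0.71 to 0.73 in WT. Slc2a12, a transporter also described in the mammary gland, was not called in either genotype. Its value was −1.15 ± 0.67 in MMTVRANK, where the populations were apart, and 0.87 ± 0.66 in WT, where they overlapped.

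Among 5 tested Slc1 members, none was higher in luminal cells, and 2 were lower in MMTVRANK and 3 in WT. Of all genes 17% were lower in MMTVRANK and 20% in WT. Slc1a3, among both counts of members, entered through basal libraries only. Without it 4 remain, of which 1 was lower in MMTVRANK and 2 in WT. Slc1a5, the exchanger that takes up glutamine, had 30.2, 34.7 and 35.7 CPM in MMTVRANK luminal and 21.0, 21.1 and 16.3 CPM in WT luminal libraries. Basal libraries held 91.9, 75.4 and 75.1 CPM in MMTVRANK and 82.0, 60.6 and 111 CPM in WT. The 4 groups lay in 3 tiers without overlap, WT luminal lowest, MMTVRANK luminal next and both basal groups on top. The log2 differences were −1.27 ± 0.21 in MMTVRANK (adjusted p = 0.000591) and −2.12 ± 0.22 in WT (adjusted p = 1.57e-05). Slc1a3, a glutamate carrier best known from glia, averaged 0.966 ± 0.992 CPM in MMTVRANK luminal, 1.52 ± 2.22 CPM in WT luminal, 51.7 ± 12.3 CPM in MMTVRANK basal and 40.3 ± 16.0 CPM in WT basal libraries. It fell by 5.70 ± 1.08 in MMTVRANK and 4.68 ± 1.02 in WT. Slc1a4, a carrier of serine, alanine and cysteine, had values of 1.32 ± 0.58 in MMTVRANK (adjusted p = 0.1) and 1.54 ± 0.58 in WT (adjusted p = 0.0527). Without WT basal library 1, where it was 10.7 CPM against 2.81 and 2.91 CPM in the other WT basal libraries, the WT value of Slc1a4 was 2.49 with an adjusted p of 0.00507. Slc1a1, a neuronal and epithelial glutamate carrier, was not called, at 1.42 in MMTVRANK and 0.84 in WT (2631 exon bases shared with a model on the other strand).

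All 3 Slc43 members were lower in luminal cells of MMTVRANK, and 2 of WT, against 17% and 20% of all genes. Slc43a3, described as a purine nucleobase carrier, lies on chromosome 2 from 84936579 to 84958509, 73.0 kb from Slc43a1. It had 12.9, 6.90 and 17.1 CPM in MMTVRANK luminal and 4.19, 4.33 and 6.10 CPM in WT luminal libraries. Basal libraries held 98.1, 78.3 and 104 CPM in MMTVRANK and 87.7, 67.6 and 112 CPM in WT. Basal cells were far above in both genotypes, with log2 differences of −2.93 ± 0.31 (adjusted p = 2.03e-05) in MMTVRANK and −4.19 ± 0.34 (adjusted p = 2.57e-06) in WT. Slc43a1, a facilitative carrier of branched-chain amino acids, fell by 3.85 ± 0.71 in MMTVRANK and 2.74 ± 0.67 in WT. Slc43a2, its relative, fell by 1.79 ± 0.48 in MMTVRANK (adjusted p = 0.0139; 922 exon bases shared with a model on the other strand) and had a value of −0.91 ± 0.47 in WT (adjusted p = 0.152). Of 3 tested proton-coupled Slc36 carriers, 1 was lower in luminal cells of MMTVRANK, and 1 was higher and 2 lower in WT. The shares over all genes were 17% lower in MMTVRANK, and 18% higher and 20% lower in WT. Slc36a4 had 24.1, 16.8 and 13.0 CPM in MMTVRANK luminal against 53.1, 40.8 and 49.1 CPM in MMTVRANK basal libraries, and 19.4, 26.2 and 16.8 CPM in WT luminal against 52.8, 31.7 and 33.5 CPM in WT basal libraries. Its populations were apart in each genotype, at −1.41 ± 0.28 in MMTVRANK (adjusted p = 0.00191) and −0.92 ± 0.28 in WT (adjusted p = 0.0195). Slc36a2, which entered through basal libraries only, was the other one lower in WT. Slc36a1, found on lysosomes, was at 13.3, 15.3 and 11.95 CPM in MMTVRANK luminal against 14.8, 13.2 and 14.8 CPM in MMTVRANK basal libraries, and at 17.7, 17.2 and 21.7 CPM in WT luminal against 11.9, 10.6 and 11.0 CPM in WT basal libraries. The WT populations were apart (0.75 ± 0.21, adjusted p = 0.0133) and the MMTVRANK ones overlapped (−0.08 ± 0.21, adjusted p = 0.807). The difference between these effects did not pass (adjusted p = 0.556).

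Summed over all 65 members, the level was 2214, 1966 and 1425 CPM in MMTVRANK luminal and 3783, 2316 and 2789.9 CPM in WT luminal libraries, against 2728, 2252 and 2341 CPM in MMTVRANK basal and 2393, 2362 and 2262 CPM in WT basal libraries. Slc7a2 alone made up 13.6% to 33.6% of the sum in MMTVRANK luminal and 33.1% to 39.7% in WT luminal libraries, against 6.11% to 12.1% in MMTVRANK basal and 4.60% to 9.73% in WT basal libraries. With Slc7a2 and Slc5a5 left out, the 63 others summed to 1107 to 1266 CPM in MMTVRANK luminal and 1317 to 1505 CPM in WT luminal, against 2056 to 2558 CPM in MMTVRANK basal and 2039 to 2277 CPM in WT basal libraries. The sums of these 63 did not overlap between populations, nor between the luminal groups of the genotypes. They are given as a description with no test.

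**Figure D3:**
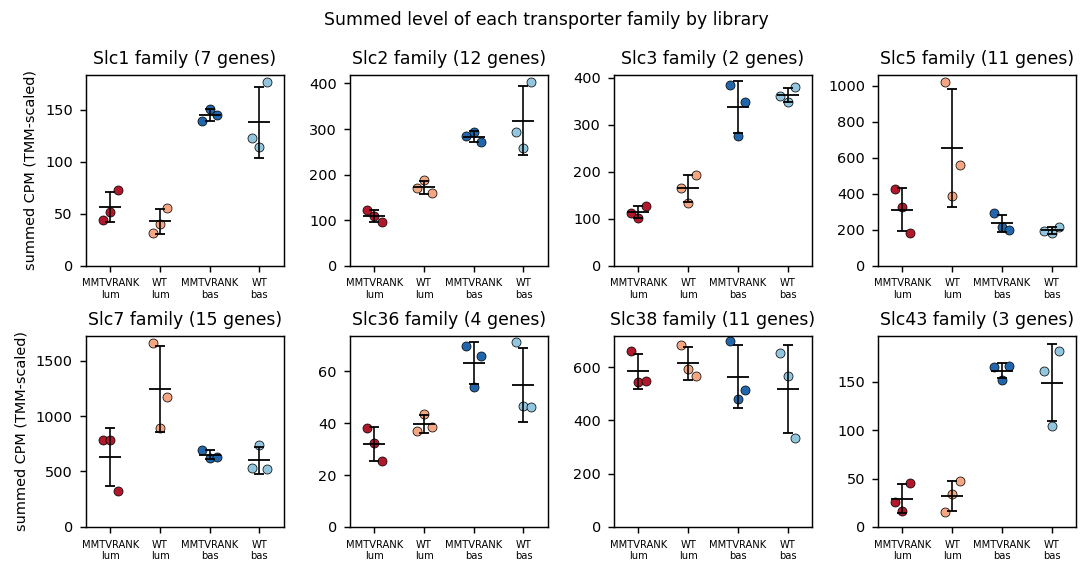
Summed level (TMM-scaled CPM) of each transporter family in each library, with MMTVRANK luminal, WT luminal, MMTVRANK basal and WT basal from left to right; bars are the mean and SD of 3 libraries. Slc1, Slc2, Slc3, Slc36 and Slc43 sums are higher in every basal library than in any luminal one of the same genotype, while the mean Slc5 and Slc7 sums are highest in WT luminal libraries and Slc38 sums overlap.

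Per kilobase of exon the order of members differed between populations. In luminal cells Slc5a5 and Slc7a2 came first, at 57.0 ± 46.4 and 55.4 ± 29.6 CPM per kb in MMTVRANK and 154 ± 97.5 and 121 ± 40.8 CPM per kb in WT (SD, n = 3 each), and these neighbours did not differ beyond their spread in either genotype. Slc3a2 followed, at 32.1 ± 3.69 CPM per kb in MMTVRANK and 46.4 ± 8.31 CPM per kb in WT luminal libraries. In MMTVRANK basal libraries the first 3 were Slc3a2, Slc7a5 and Slc2a1, at 95.3 ± 15.6, 63.7 ± 23.1 and 47.6 ± 3.23 CPM per kb. In WT basal libraries they were Slc3a2, Slc2a1 and Slc7a5, at 103 ± 4.44, 62.9 ± 19.5 and 60.8 ± 32.3 CPM per kb, and Slc7a5 and Slc2a1 did not differ beyond their spread in either genotype.

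No transporter gene passed the test between MMTVRANK and WT luminal cells. Of the 46 tested, 10 had an unadjusted p under 0.05 by edgeR's quasi-likelihood test, as did 2183 of all 18236 genes. The lowest adjusted p was 0.0999, where 0.252% of all genes passed the adjusted threshold. The median log2 difference, MMTVRANK minus WT, was −0.06 over the members and 0.03 over all genes. DESeq2 called 3 members (Slc43a3, Slc2a1 and Slc3a2) of 800 genes in all, and limma-voom called 0. The libraries did not overlap for 12 members, against 16.9% of all genes. Of the 12, 5 were above WT in every MMTVRANK library (10.1% of all genes) and 7 below (6.82%).

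The smallest p belonged to Slc43a3, at 12.9, 6.90 and 17.1 CPM in MMTVRANK luminal against 4.19, 4.33 and 6.10 CPM in WT luminal libraries. The groups were apart and the value was 1.33 ± 0.31 on the log2 scale (95% interval 0.66 to 2.01). With the replicate number as a block the value of Slc43a3 was 1.28 with an adjusted p of 0.0281, the 1 member called in that fit. Without MMTVRANK luminal library 2 it was 1.58 with an adjusted p of 0.0414, and without library 3, the one that stood apart, 0.98 with an adjusted p of 0.357. Slc1a5 came next at 0.79 ± 0.21 (adjusted p = 0.141), then Slc2a1 at −0.75 ± 0.21 (adjusted p = 0.146) and Slc3a2 at −0.53 ± 0.17 (adjusted p = 0.205), each with all 3 MMTVRANK luminal libraries on 1 side of the WT luminal ones. Slc2a1 had 95.7, 87.1 and 70.3 CPM in MMTVRANK luminal against 137, 154 and 135 CPM in WT luminal libraries. Without MMTVRANK luminal library 3 these values were 0.70 for Slc1a5, −0.67 for Slc2a1 and −0.66 for Slc3a2, in the same direction.

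The luminal genes highest per kilobase of exon, Slc5a5 and Slc7a2, were lower on average in MMTVRANK luminal libraries, within a wide spread. Other abundant members were closer: Slc38a1 averaged 169 ± 11.7 CPM in MMTVRANK luminal and 162 ± 8.24 CPM in WT luminal libraries. Slc38a2 averaged 218 ± 57.5 CPM and 232 ± 58.5 CPM in the same groups. Slc7a2 averaged 506 ± 270.3 CPM in MMTVRANK luminal and 1102 ± 373 CPM in WT luminal libraries (SD, n = 3 each), a log2 difference of −1.12 ± 0.45 (adjusted p = 0.336). Slc5a5 averaged 167 ± 136 CPM in MMTVRANK luminal and 452 ± 285 CPM in WT luminal libraries, a difference of −1.44 ± 0.89 (adjusted p = 0.611). Without MMTVRANK luminal library 3 the values were −0.78 for Slc7a2 and −0.96 for Slc5a5. The sum of 9 luminal markers moved with them, at 7030.0 to 12794 CPM in MMTVRANK luminal and 15327 to 21539 CPM in WT luminal libraries, and 12 of 13 tested leukocyte markers had positive values with a median of 2.72, none of them called. The leukocyte sum was large in MMTVRANK luminal library 3 alone, at 508 CPM, while libraries 1 and 2, at 126 and 138 CPM, lay near the 133 to 139.6 CPM of WT luminal libraries. Their part in the result was not tested. Slc5a6 had a value of −1.43 ± 0.52 (adjusted p = 0.275), Slc2a12 of −1.82 ± 0.68 (adjusted p = 0.279), Slc36a1 of −0.48 ± 0.21 (adjusted p = 0.38), Slc5a3 of −0.49 ± 0.22 (adjusted p = 0.406) and Slc1a2, a glutamate carrier, of 1.89 ± 0.74 (adjusted p = 0.319). For Slc1a2 and Slc2a12, 189 and 407 exon bases are shared with models on the other strand.

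**Figure D4:**
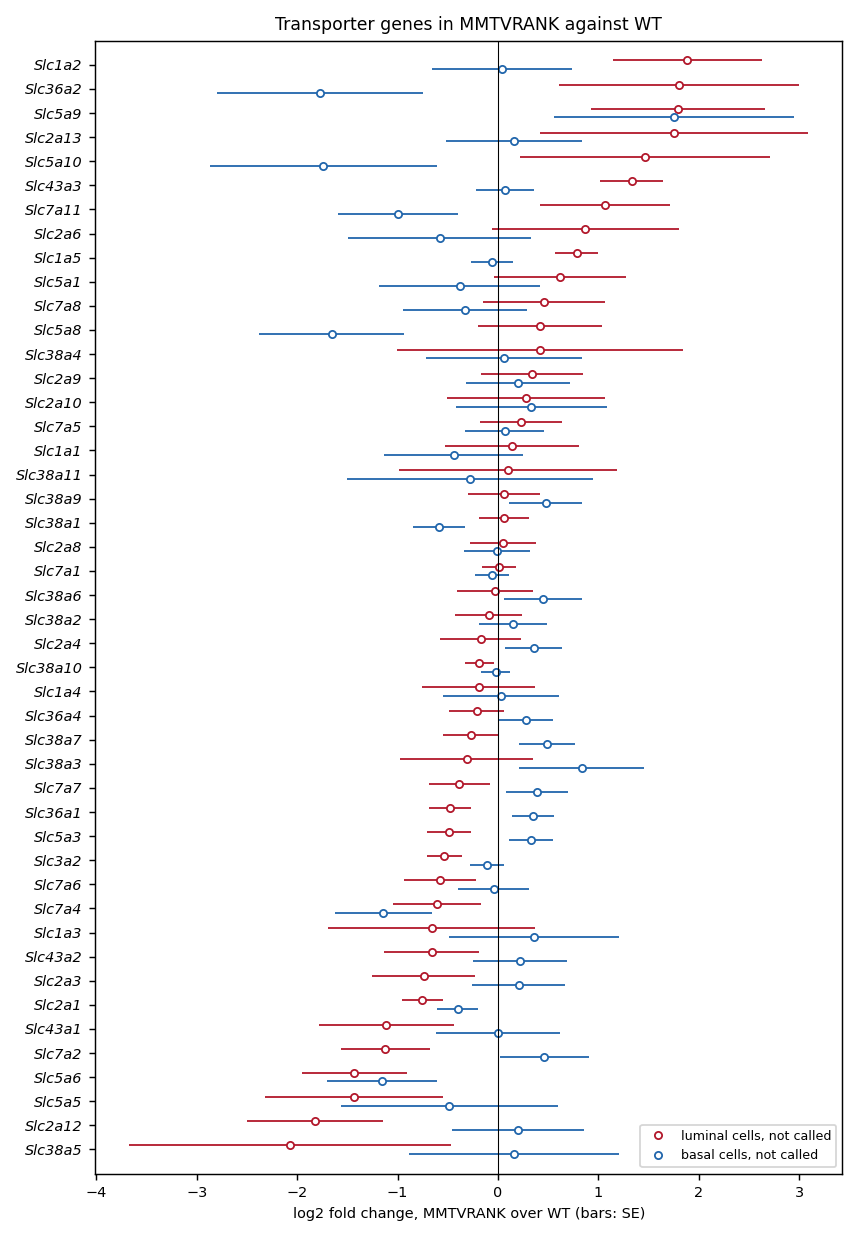
Log2 difference, MMTVRANK over WT, of the 46 tested transporter genes in luminal (red) and basal (blue) cells, with SE bars; open points did not pass the test at an adjusted p under 0.05, and none did. Slc43a3 at 1.33 and Slc1a5 at 0.79 in luminal cells have short bars, and Slc2a12 at −1.82 has a longer one.

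In basal cells no member passed either, where 0.00548% of all genes did (edgeR's quasi-likelihood test). The lowest adjusted p was 0.897, and DESeq2 and limma-voom called 0. There 3 members had an unadjusted p under 0.05, as did 986 of all 18236 genes. These 3 were Slc7a4 at −1.14 ± 0.49, Slc5a8 at −1.66 ± 0.72 and Slc38a1 at −0.59 ± 0.26 on the log2 scale, all genes that were higher in luminal cells. The sum of 9 luminal markers moved with them, at 342 to 434 CPM in MMTVRANK basal and 574 to 576 CPM in WT basal libraries, and its part in these values was not tested. Slc5a6, with the next smallest p, had a value of −1.15 on the log2 scale. In basal libraries 3 members did not overlap between genotypes, against 11.1% of all genes: Slc2a4 and Slc36a1 were above WT in every MMTVRANK library (6.6% of all genes) and Slc5a8 below (4.52%). For 3 transporters that were higher in basal than in luminal cells the 95% intervals held 0: −0.48 to 0.26 for Slc3a2, −0.26 to 0.97 for Slc2a4 and −0.80 to 0.94 for Slc7a5.

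The genotype effect was also compared between the populations. No member passed, where 0.00548% of all genes did, with a lowest adjusted p of 0.525 by edgeR and no call by DESeq2 or limma-voom. By edgeR 8 members had an unadjusted p under 0.05, as did 1410 of all 18236 genes. Of these 8, Slc43a3 had an effect 1.26 ± 0.42 larger and Slc1a5 one 0.85 ± 0.30 larger in luminal than in basal cells, and Slc7a2 one 1.58 ± 0.63 smaller on the log2 scale. For Slc5a3 and Slc36a1 the values were −0.82 ± 0.31 and −0.83 ± 0.29, for Slc7a11 and Slc5a8 2.06 ± 0.88 and 2.08 ± 0.95, and for Slc36a2, whose levels stayed at 6.73 CPM or less, 3.58 ± 1.58.

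Genes of the pathways that use these substrates were read in the same fit, where 33.2% of all genes passed between populations in MMTVRANK and 38.1% in WT. Between luminal and basal cells, the list of lactose synthesis and glucose supply had 8 of 14 genes higher and 1 lower in luminal cells in each genotype. Its smallest p values in WT were for the prolactin receptor Prlr (7.40 ± 0.69), alpha-lactalbumin Lalba (7.06 ± 0.77) and galactosyltransferase B4galt1 (1.65 ± 0.19), the last 2 forming lactose synthase. In the glycolysis list of 20, 4 genes were higher and 6 lower in luminal cells of MMTVRANK, and 5 and 8 of WT. The aldolase Aldoc was higher (2.37 ± 0.21 in MMTVRANK, 3.12 ± 0.22 in WT), and the lactate dehydrogenase subunit Ldhb (−3.63 ± 0.26 and −3.40 ± 0.26) and the lactate carrier Slc16a1 (−2.17 ± 0.24 and −2.08 ± 0.24) were lower.

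The list of glutamine, glutamate and serine metabolism had 6 of 17 higher in each genotype, with 2 lower in MMTVRANK and 4 in WT. The aminotransferase Got1 was higher (2.42 ± 0.30 in MMTVRANK, 2.54 ± 0.30 in WT) and the alanine aminotransferase Gpt2 lower (−2.38 ± 0.18 and −2.17 ± 0.18). Of 20 amino acid response genes, targets of the factor Atf4 among them, 5 were higher and 5 lower in MMTVRANK, and 3 and 8 in WT. They included the stress factor Nupr1 (4.24 ± 0.44 in MMTVRANK, 4.71 ± 0.44 in WT), the lipoprotein receptor Vldlr (−3.14 ± 0.40 and −3.68 ± 0.41) and Atf4 itself (−0.60 ± 0.16 and −0.87 ± 0.16). Of 23 tested genes of nutrient sensing by mTORC1, 4 were higher and 3 lower in MMTVRANK, and 3 and 2 in WT. Over all genes 33.2% were called in MMTVRANK and 38.1% in WT, and the list as a whole was not tested. Among the 23 genes was Lamtor2, a lysosomal scaffold subunit, at 1.08 ± 0.26 in MMTVRANK and 1.40 ± 0.26 in WT.

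Between MMTVRANK and WT luminal cells, none of the 4 lists other than lactose and proliferation held a called gene. Lalba had 0.681, 0.320 and 0.820 CPM in MMTVRANK luminal against 31.5, 34.5 and 64.4 CPM in WT luminal libraries, with the groups far apart, and fell by 6.14 ± 0.71 on the log2 scale (adjusted p = 0.00921). Of 20 proliferation genes the thymidylate synthase Tyms passed, at 33.1, 21.2 and 28.2 CPM in MMTVRANK luminal against 6.81, 8.51 and 5.65 CPM in WT luminal libraries (1.97 ± 0.34, adjusted p = 0.0457). All 20 had positive values there, with a median of 2.53 against 0.03 over all genes. Their sums averaged 2031 ± 744 CPM in MMTVRANK luminal and 422 ± 161 CPM in WT luminal libraries (SD), without overlap. The shift of the list as a whole was not tested. From basal to luminal cells, 19 of the 20 had positive values in MMTVRANK and 3 in WT, with medians of 1.00 and −0.78. No gene of the 6 lists passed between genotypes in basal cells.

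The 19 members that were not tested reached at most 4.01 CPM in any library, and 2 of them, Slc2a7 and Slc36a3, had no count in any library, out of a total of 166483142. At a limit of 3 counts that allows up to 0.0180 CPM over all libraries, which covers counting error only. Slc3a1, the second heavy chain, known from kidney and gut, had at most 0.832 CPM, and Slc7a10, a light chain for small neutral amino acids, at most 0.773 CPM. In all, 15 members share exon bases with another gene model, 14 of them on the other strand. They make up 5 of the 28 members called between populations in MMTVRANK and 9 of the 34 in WT.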

How the data were processed

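RNA of sorted luminal and basal cells was prepared with a stranded total RNA kit (SMARTer Pico), per the labels' protocols. Per the submitters' processing notes, reads were aligned with STAR 2.6.1b to GRCm38.p6. The authors deposited raw counts per gene symbol, made with featureCounts 1.5.2 on GENCODE M17 with no strand option, per the file headers, so reads of overlapping genes on opposite strands are not told apart.

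From these counts, genes were kept by filterByExpr (minimum count 10, or 0.728 CPM at the median total), which left 18236. Libraries were scaled by TMM and all 12 were fitted as 4 groups with edgeR 4.0.16 (robust quasi-likelihood test, R 4.3.3). P-values were adjusted by Benjamini-Hochberg over all 18236 genes, with a threshold of 0.05. The SE is the log2 difference divided by the square root of F, and the common biological coefficient of variation was 0.450. CPM per kb used the deposited exon length. Totals of 12459500 to 15069600 counts per library set the precision of low genes, and limits and floors at 0 counts cover counting error only. The script was tested on simulated counts.

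Alternatives were RLE size factors, DESeq2 1.42.0, limma-voom (limma 3.58.1), no filter, the compared groups alone, a replicate block, and fits without single libraries or without both WT replicate 2 libraries. Titles decided the groups. All groups share replicate numbers 1 to 3, whose meaning is not given. The correlation of deviations between same-numbered libraries over 9330 genes was 0.114 to 0.258 between populations in MMTVRANK and 0.168 to 0.380 in WT, 0.115 to 0.560 between genotypes in luminal cells and −0.0467 to 0.405 in basal cells. These values come from the data alone and do not settle whether the numbers pair libraries. The main fit held no pairing, and calls that differ with the replicate number as a block are given beside it.

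Members and gene lists were chosen with earlier results of these data known. Named with values were a list of 30 transporters, members past the threshold with an average log2 CPM of 2 or more (the 10 highest and 10 lowest where over 20 passed), the 4 smallest p-values of each genotype comparison and up to 3 genes of each pathway list. Slc1a2, Slc2a13, Slc36a2 and Slc36a4, and members at an unadjusted p under 0.05 between genotypes, were named after their values were seen. Promoters came from RefSeq tables.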

Additional observations from a re-analysis of the deposited data

How the results depend on the processing

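Over 7 other settings, 26 to 33 members were called between populations in MMTVRANK and 26 to 37 in WT, and without 1 library 25 to 30 in MMTVRANK and 28 to 34 in WT. With the replicate block the counts were 31 in MMTVRANK and 34 in WT, 1 between genotypes in luminal cells, and 0 in basal cells and for the difference of effects. Beside Slc38a2 and Slc43a3, the block added the calls of Slc38a11 and Slc2a10 between populations in MMTVRANK and changed no other call. Between genotypes in luminal cells DESeq2 called 3 members, no filter on low counts 7, and fits without 1 library 0 to 1. Without the filter 63 members and 37789 genes were fitted, and 3.58% of all genes were called between genotypes in luminal cells. In basal cells 1 member was called in that fit, against 0.924% of all genes. For the difference of effects 2 members were called, against 2.05% of all genes. Over all genes the luminal genotype count was 46, against 800 with DESeq2, 1353 without the filter, 103 with the block, 29 with limma-voom and 7 from the compared groups alone. The cause was not tested. Values near 0 changed sign between populations: Slc2a8 in WT was −0.020 with RLE size factors and the block, −0.022 with DESeq2, −0.091 with limma-voom and −0.29 to 0.30 without 1 library. Slc7a8 in WT was −0.027 with RLE size factors, −0.028 with DESeq2, −0.0041 from the compared groups alone and −0.37 to 0.61 without 1 library. In MMTVRANK, Slc2a8 was −0.069 to 0.16 and Slc36a1 −0.18 to 0.0049 without 1 library. Leaving out 1 library also lost the calls of Slc36a1 in WT (without WT luminal library 3) and of Slc38a6, Slc38a10 and Slc43a2 in MMTVRANK (in 2, 3 and 2 of 12 fits). Depth limits the 19 members that were not tested.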
